A study of Mus musculus with 2 samples.

Results

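The replication-dependent histone genes of the mouse are the members of the Hist1, Hist2, Hist3 and Hist4 gene clusters, which encode the linker histone H1 and the core histones H2A, H2B, H3 and H4. They were taken here as every gene whose symbol begins with Hist1h, Hist2h, Hist3h or Hist4h, which gave 67 of the 32285 genes in the count matrices. By family they were 6 H1, 18 H2A, 18 H2B, 12 H3 and 13 H4 genes, and 54 of them lie on chromosome 13, 10 on chromosome 3, 2 on chromosome 11 and 1 on chromosome 6 (GRCm38). They were followed through droplet single-cell libraries of tumours from the intestine of mice. The tumours followed AOM-DSS treatment, in which the mutagen azoxymethane is combined with dextran sulfate sodium, an irritant of the colon lining. The WT library came from Mtch2fl/fl mice, whose Mtch2 is flanked by loxP sites but which lack Cre, and the cKO library from Mtch2fl/fl VilCre mice, which add Cre driven by the Villin promoter. Both groups carried the floxed alleles and received AOM-DSS. Villin is active in the intestinal epithelium, so that cells of other types keep an intact gene. Tumours of a genotype were pooled, dissociated with trypsin and made into 1 library, which leaves no replicates, no test between genotypes and no p-value. The labels give no age.

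A cell that replicates its DNA must package the new copy at once, and the clustered histone genes supply the bulk of the protein for it. They have no introns in their usual form, and they are transcribed together in S phase from a dedicated nuclear body that holds the coactivator NPAT. Their transcripts are the one class of metazoan messenger RNA that normally ends without a poly(A) tail: the 3′ end is a short stem-loop that is bound by the stem-loop binding protein SLBP and cut by the U7 small nuclear ribonucleoprotein. Some members can also end further downstream at an ordinary poly(A) signal, and such forms are known in cells that have left the cycle. The libraries measured here begin with priming on poly(A), so a member's level is that of the transcripts which could be primed, and levels of different members are counts of tags with no scaling to length.

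The stem-loop was looked for in the annotated transcripts, because it is the feature that sets these genes apart from other mRNAs and decides which 3′ end can be made. The motif searched, on the sense strand within 150 bases after the stop codon, was the histone stem-loop consensus of 16 bases, with 6 positions left free (those 3, 4, 8, 10, 13 and 14 of the capitals below, whose other letters were fixed). It was found in 46 members and in 52 of 21699 protein-coding genes (0.240%). Thus 6 genes that are not members by symbol held it, and their positions were not looked at. The site is given for 7 members, 5′ to 3′ in the sense of the transcript, with the stem-loop in capitals.
Hist1h2ap, chr13:21833029-21833044, minus strand: aaaaaaGGCTCTTTTCAGAGCCatc
Hist1h3b, chr13:23752820-23752835, plus strand: cccaaaGGCTCTTTTCAGAGCCacccac
Hist1h2ae, chr13:23570668-23570683, minus strand: aacaaaGGCTCTTTTCAGAGCCattcac
Hist1h1c, chr13:23739512-23739527, plus strand: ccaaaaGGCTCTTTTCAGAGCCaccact
Hist3h2a, chr11:58955172-58955187, plus strand: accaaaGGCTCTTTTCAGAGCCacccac
Hist1h4d, chr13:23581950-23581965, plus strand: accaaaGGCCCTTTTCAGGGCCactacc
Hist1h4i, chr13:22040966-22040981, minus strand: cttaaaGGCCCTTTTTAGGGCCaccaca
The coordinates are those of the capitals in the GRCm38 annotation (GENCODE M21), and each lies in the 3′ untranslated region (3′ UTR) of the single exon. In the longest annotated transcript of each gene the motif was present in 45 members. The most frequent form, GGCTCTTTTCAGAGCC, stood in 25 of them and in every family but H4. Of the 12 H4 genes with a motif, 10 had a stem that begins GGCCC, a form that no H1, H2A, H2B or H3 gene had.

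The members differed in what is annotated beyond the stem-loop. In Hist1h2ap the annotated transcript ended 3 bases after it, and in Hist1h3b 51 bases after it. In Hist1h1c it ran on for 840 bases and held 2 poly(A) signals, the last of them 20 bases before its end. The annotated transcript of Hist1h2ae ran on for 151 bases, with an AATAAA 22 bases before the end. Hist1h2bc, an H2B gene, was annotated only as a spliced transcript of 2 exons with a 3′ UTR of 742 bases and no stem-loop. Annotated 3′ UTRs reached 120 bases or more in 28 members, a division chosen after the values were seen. These 28 members held 82.5% of all member UMIs (unique molecular identifiers, 1 per captured RNA molecule). The 18 members with a poly(A) signal (AATAAA or ATTAAA) within 1000 bases after the stop codon held 69.5%.

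The deposited matrices held 9445 barcodes with 116066712 UMIs (WT) and 6723 with 97364087 (cKO), and 7245 and 4388 cells were kept, at medians of 3723 and 6928 UMIs. The libraries shared 22 barcodes. Clusters formed without the histone genes were named from marker lists, and gave 3335 WT and 2096 cKO epithelial-like cells. A further 2603 WT and 489 cKO kept cells, at medians of 739 and 716 UMIs, fell in unnamed clusters and entered no class. Mtch2, the targeted gene, stood at 93.5 CPM (a gene's UMIs relative to all UMIs of the same cells, in the usual scaling of counts) in WT epithelial-like cells and at 23.5 in cKO, a log2 ratio of -1.99 (95% interval -2.07 to -1.91), while it was 48.3 and 41.4 in T-like cells and 53.3 and 51.0 among macrophages and monocytes. In neutrophil-like cells, from 41 and 37 UMIs, it was 44.7 and 19.4, a log2 ratio of -1.20 (-1.88 to -0.53). Epithelial markers are a measure of free RNA in other classes: their sum was 12.4% (WT) and 8.19% (cKO) of the epithelial-like level in T-like cells and 9.32% and 6.85% among macrophages and monocytes, and 21.3% and 13.2% in neutrophil-like cells. In the unnamed cells the same sum was 114% and 102%, and the histone genes of these cells summed to 1197 and 1063 CPM. All intervals below are exact 95% intervals that cover counting error only, and not differences between mice or tumours.

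UMIs of 64 members were found, and Hist1h2aa, Hist1h2ba and Hist1h2bq had none in any deposited barcode. No stretch of 90 bases near the annotated 3′ end of Hist1h2bq is unique to it, so its lack of UMIs need not mean a lack of transcripts. Together the members had 208287 UMIs in kept cells. Hist1h2bc and Hist1h1c, which encodes the linker histone H1.2, made up 49.4% of these, and the 10 highest members 78.9%. In epithelial-like cells 47 members reached 2 CPM in WT and 48 in cKO, and 16 and 17 reached 10.

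Hist1h2bc was the highest member in epithelial-like cells at 336 CPM in WT and 333 in cKO. Hist1h1c followed at 258 and 204. The next H1 genes were Hist1h1e, which encodes H1.4, at 64.0 and 60.8, and Hist1h1b, which encodes H1.5, at 47.3 and 55.6. Linker histones bind the DNA between nucleosomes, and 4 of the 12 highest members belonged to this family of 6. Hist1h1d, the gene of H1.3, was the last of these at 27.3 and 26.2. Hist1h1t, the testis-specific linker histone gene, stayed at or below 0.4 CPM in mitotic and other cells of both libraries. The highest H4 genes were Hist1h4i (52.7 and 49.9) and Hist1h4d (31.4 and 30.7). Among H2A genes Hist3h2a (43.9 and 40.8), Hist1h2ae (40.8 and 44.6) and Hist1h2ap (23.5 and 13.9) led. Hist3h2ba, the H2B gene that neighbours Hist3h2a on chromosome 11, had 22.6 and 20.6, and the highest H3 gene was Hist1h3e at 15.1 and 15.9.

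The question of first interest was whether these genes follow proliferation in the tumour epithelium. Of the 10 epithelial-like clusters, 2 were called mitotic, with 244 WT and 178 cKO cells. The rule asked for at least 2 times the median epithelial-like level of 41 genes of G2 and M phase. It also asked for at least 3 of these genes among the 10 leading genes of the cluster. The clusters led by Fstl4 (2137 CPM over both libraries) and by Peak1 and Lars2 (1634) met the level but not the second condition. Both were counted with the other cells, which thus include cells that express G2 and M phase genes. The 67 histone genes summed to 1854 CPM (1824 to 1884) in the WT mitotic cells and 1097 (1090 to 1104) in the other WT epithelial-like cells, 1.69-fold higher (1.66 to 1.72). In cKO the sums were 1635 (1606 to 1663) and 1040 (1032 to 1048), 1.57-fold higher (1.54 to 1.60). Without Hist1h2bc and Hist1h1c the ratios were 2.81 (2.75 to 2.87) and 2.67 (2.61 to 2.73), a setting chosen after seeing the data. The sum of all members therefore moved less than most of its members did. One of the 2 mitotic clusters (91 and 74 cells, median depth of 3891 and 3427 UMIs) was led by the immunoglobulin genes Ighv4-1 and Igkv1-117 beside Ube2c and Birc5. Without it the ratios over all members were 1.71 and 1.58.

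Most members were higher in the mitotic cells. A member was measured at 2 CPM in either group with 20 UMIs over both, and called at 1.5-fold with an interval that excluded equal levels. In WT 40 of 56 measured members were called higher, against 12.8% of all measured genes, and 2 were called lower, against 13.3%. In cKO 37 of 55 were called higher, against 14.6%, and 4 lower, against 15.9%. Of the 54 measured in both libraries, 36 were called higher in both, 1 lower in both (Hist2h3c1) and none in opposite directions. The median log2 ratio of the measured members was 1.47 in WT and 1.43 in cKO, beside 0.05 and 0.03 over all genes measured. By the depth-matched share of single cells, 76.7% (70.3 to 82.4, Clopper-Pearson) of WT mitotic cells and 60.7% (58.8 to 62.5) of other WT cells had a UMI of the members without the 2 highest after thinning to 3000 UMIs, and 91.0% and 84.6% without thinning. In cKO the thinned shares were 77.2% (69.5 to 83.8) and 60.8% (58.3 to 63.3), and the unthinned ones 89.3% and 83.5%. Neutrophil-like cells, at medians of 3945 and 4730 UMIs, gave 39.9% and 35.9%.

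**Figure D1:**
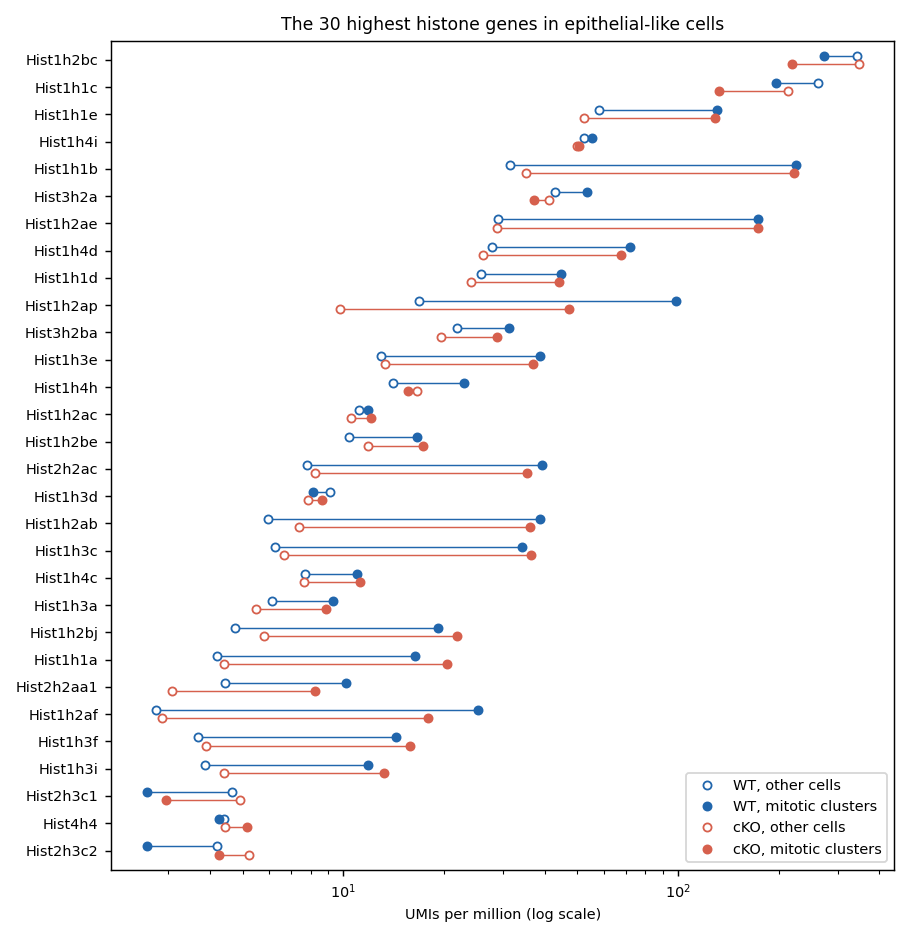
CPM (log scale) of the 30 highest histone genes in epithelial-like cells, with open points for the other cells and filled points for the mitotic clusters, joined per library. Hist1h1b and Hist1h2ae lie far to the right in mitotic cells of both libraries, whereas Hist1h2bc and Hist1h1c lie to the left.

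The largest ratios belonged to H2A, H1 and H3 genes. Hist1h1b rose from 31.5 CPM in other cells to 225 in mitotic cells in WT (7.15-fold) and from 35.2 to 222 in cKO (6.32-fold). Hist1h2ae rose from 28.9 to 174 in WT (6.02-fold) and from 28.8 to 173 in cKO. In cKO mitotic cells Hist1h1b thereby stood level with Hist1h2bc. Hist1h2af went from 2.76 to 25.3 and from 2.87 to 17.9, Hist1h2ab from 5.94 to 38.7 and from 7.37 to 36.2, and the H3 gene Hist1h3b from 1.33 to 8.01 and from 1.67 to 9.40. Of the 90-base windows near the annotated 3′ end, 100% are unique to the gene in Hist1h1b and 52.3% in Hist1h2ae. In Hist1h2ab, Hist1h2af and Hist1h3b it is 46.4%, 33.5% and 28.0%, so that their reads may be shared with copies. In all, 28 members had fewer than 50% unique windows, and their levels are uncertain.

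At the other end stood the most abundant members. Hist1h1c was lower in mitotic cells at 197 against 263 CPM in WT (0.75-fold, not called) and 133 against 213 in cKO (0.62-fold, called lower). Hist1h2bc was at 273 against 342 in WT (0.80-fold, not called) and 219 against 347 in cKO (0.63-fold, called lower). The first encodes a linker histone and the second a core histone, and both genes had a long annotated 3′ UTR. The H3 genes Hist2h3c1 (2.58 against 4.66, and 2.96 against 4.92) and Hist2h3c2 (2.58 against 4.18, and 4.25 against 5.24) and the H4 gene Hist1h4n (2.97 against 3.92, and 2.06 against 2.95) made up the rest of the 5 lowest. None of the 90-base windows of Hist2h3c1 were unique.

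H4 genes had the lowest median ratio of the 5 families in this comparison. Their median log2 ratio was 0.30 in WT and 0.13 in cKO, with 2 and 1 of 10 measured members called higher, which is near the 12.8% and 14.6% of all genes. It was 2.30 and 2.10 for H2A, 1.60 and 1.46 for H2B, 1.60 and 1.59 for H3, and 1.17 and 1.30 for H1. No test of the difference between families was made. Hist1h4i, the highest H4 gene, was at 55.3 and 52.5 CPM in WT mitotic and other cells and at 50.7 and 49.8 in cKO. Hist1h4d, by contrast, stood at 71.9 against 27.8 and at 67.7 against 26.2. The 2 Hist3 members were not called in either library, and Hist4h4 was not called either.

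Ratios also differed with the annotated 3′ UTR. Among members with 120 bases or more, 12 of 26 measured were called higher in WT and 10 of 25 in cKO, with median log2 ratios of 0.56 and 0.55. Among the 24 members with a shorter one of over 2 bases the medians were 1.93 and 1.92, with 18 of 20 and 16 of 19 called higher. Among the 15 members with 2 annotated bases or fewer they were 2.18 and 2.10. All 10 of these measured in WT and all 11 in cKO were called higher. Hist1h2ae, with 199 bases, had the largest ratio of the long group. An annotated end is not an observed one, and which 3′ ends were captured in these cells was not measured.

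**Figure D2:**
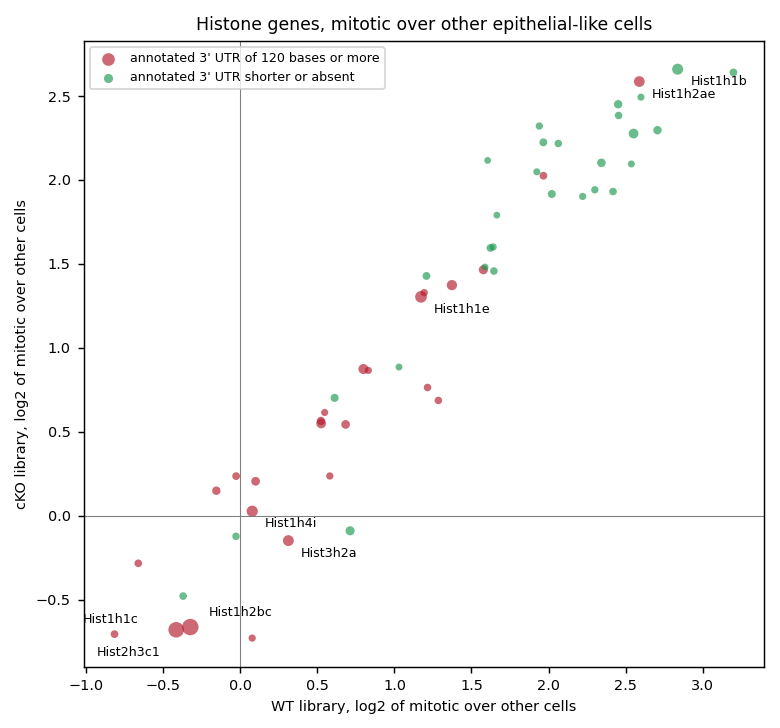
Log2 ratio of mitotic over other epithelial-like cells for the 54 histone genes measured in both libraries, WT on the horizontal and cKO on the vertical axis, with point area rising with WT level. Members with an annotated 3′ UTR of 120 bases or more (red) reach down to Hist1h1c, Hist1h2bc and Hist2h3c1, and the others (green) lie mostly in the upper right.

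The promoters of Hist1h1b and Hist1h1c are shown because these 2 genes of one family went opposite ways with the cycle. Each is the 250 bases before the RefSeq start on the sense strand (GRCm38.p6), with matches on either strand to CCAAT, to TATAAA and to the H1 box AAACACA in capitals.
Hist1h1b, chr13:21780626-21780875, minus strand: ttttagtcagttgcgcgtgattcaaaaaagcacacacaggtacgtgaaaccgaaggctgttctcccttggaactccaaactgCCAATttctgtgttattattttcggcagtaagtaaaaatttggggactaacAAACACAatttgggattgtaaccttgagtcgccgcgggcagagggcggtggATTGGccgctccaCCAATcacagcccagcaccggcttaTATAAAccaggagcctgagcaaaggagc
Hist1h1c, chr13:23738557-23738806, plus strand: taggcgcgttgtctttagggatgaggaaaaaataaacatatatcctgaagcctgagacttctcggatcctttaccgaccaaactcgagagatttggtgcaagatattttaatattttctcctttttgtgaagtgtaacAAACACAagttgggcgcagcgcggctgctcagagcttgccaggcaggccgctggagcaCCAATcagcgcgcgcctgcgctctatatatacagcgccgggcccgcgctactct
Both windows held the H1 box, which 5 of 6 H1 promoters and 6.22% of the promoters of 27025 genes held on either strand. CCAAT was found 3 times in the first and once in the second, and TATAAA in the first only. RefSeq promoters were matched for 61 members. The octamer ATTTGCAT was found in 7 of 17 H2A and 6 of 16 H2B promoters, in no H1, H3 or H4 promoter, and in 1.61% of all promoters. CCAAT was found in all 6 H1, 17 H2A and 16 H2B promoters matched, in 8 of 10 H3 and 3 of 12 H4 promoters, and in 34.5% of all promoters. Hist2h3c1 and Hist2h3c2 were the H3 genes without it. All of these shares refer to windows of 250 bases, 1 a gene. These are matches of letters and not sites of binding.

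Single epithelial-like cells were also placed by the cell cycle genes themselves. Cells with at least 5000 UMIs (2400 WT and 1502 cKO) were thinned to that number and called high for the 49 genes of replication and G1/S above 6 UMIs and for the 41 genes of G2 and M phase above 5 UMIs, near the upper 20% of each library. These are ranges of a score and not cell types, and 483 and 269 cells lay within 1 UMI of a limit. The members without Hist1h2bc and Hist1h1c were highest where both lists were high, at 1430 CPM (1410 to 1451) in 254 WT cells and 1423 (1403 to 1444) in 187 cKO cells. Where neither was high they stood at 371 (366 to 375) and 362 (357 to 368). Cells high for G1/S alone had 475 and 340, and cells high for G2 and M phase alone 671 and 449. The level in cells high for one list was thus nearer to that of the cells high for neither.

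Hist1h1b varied most steeply of the members at 2 CPM or more in cells high for neither list, from 6.61 (WT) and 5.01 (cKO) CPM in cells high for neither list to 237 and 259 in cells high for both. In cells high for G1/S alone it was 42.1 and 19.8, and in cells high for G2 and M phase alone 60.6 and 36.5. Hist1h2ae went from 12.8 and 10.4 to 174 and 182. Hist1h2bc did the reverse and fell from 371 and 396 to 229 and 203, and Hist1h1c from 293 and 253 to 174 and 129. In cells high for G1/S alone Hist1h2bc stood at 228 and 157, and Hist1h1c at 174 and 91.8. In cells high for G2 and M phase alone Hist1h2bc was at 385 and 351 and Hist1h1c at 218 and 143, so that Hist1h2bc in WT was the single one of these values not below that of cells high for neither list.

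**Figure D3:**
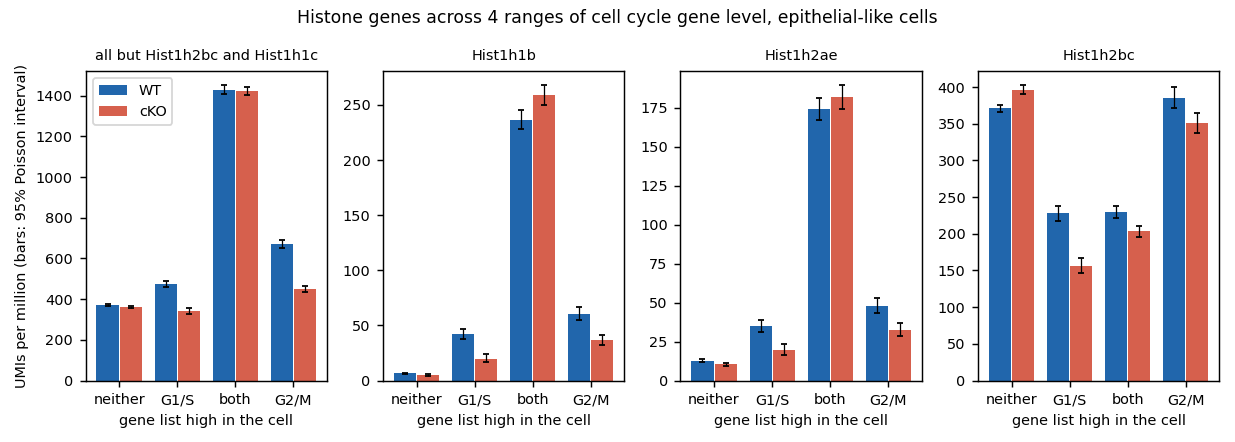
CPM in 4 ranges of epithelial-like cells, by whether the G1/S list, the G2 and M phase list, both or neither were high, with exact 95% Poisson intervals. The members without Hist1h2bc and Hist1h1c, Hist1h1b and Hist1h2ae peak where both lists are high, and Hist1h2bc does not.

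The 13 clusters of at least 100 cells in each library were taken from any class and included the largest unnamed one. Across them, the log2 level of Hist1h1b went with that of the G1/S list at Pearson r of 0.93 in WT and 0.91 in cKO. For Hist1h2ae r was 0.91 and 0.92. The same figure was -0.04 and -0.08 for Hist1h2bc, 0.10 and -0.02 for Hist1h1c and 0.10 and 0.11 for Hist1h4i. Clusters of a library share its depth and its free RNA, and these values are descriptions.

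The genes that serve the histones moved with the mitotic cells only in part. All 49 G1/S genes were called higher there in both libraries, as were all 41 genes of the list that served to choose the clusters. Of 14 genes of histone transcription and 3′ processing, 4 were called higher in WT and 6 in cKO, against 12.8% and 14.6% of all genes. None was called lower, against 13.3% and 15.9%. Slbp, which encodes the stem-loop binding protein, stood at 105 against 52.3 CPM in WT and 110 against 51.1 in cKO, and Zfp473, a zinc finger protein of the U7 complex, at 3.10 against 0.59 and 2.70 against 0.60. Casp8ap2 and Eri1 were called higher in both libraries, and Cpsf2 and Srrt in cKO. Of 22 histone chaperones, 15 were called higher in each library, against the same 12.8% and 14.6%. They were led by Asf1b (30.1 against 6.03, and 35.5 against 6.63), which hands H3 and H4 dimers to the assembly machinery. Chaf1a, a subunit of the assembly factor CAF-1, had 37.1 against 10.2 and 40.6 against 10.5, and Nasp, the H3 and H4 chaperone, 184 against 83.9 and 222.5 against 89.8.

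Variant histone genes outside the clusters were followed as a comparison. Of 11 such variants 7 were called higher in mitotic cells of each library, against 12.8% (WT) and 14.6% (cKO) of all genes. These were H2afz, H2afv, H2afx, H2afy2, H1f0, H1fx and Cenpa. H2afz, the gene of H2A.Z, had 1659 against 637 CPM in WT and 1875 against 688 in cKO, which is more than all 67 clustered members together in cKO mitotic cells. Cenpa, the centromeric H3 variant, had 146 against 25.2 and 136 against 34.0.

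The highest level of the clustered genes lay outside the 2 clusters called mitotic. An epithelial-like cluster of 243 WT and 204 cKO cells had 2906 CPM (2805 to 3010) in WT and 2019 (1924 to 2117) in cKO, against 1075 and 1027 in the remaining non-mitotic epithelial-like cells. It was led by Peak1, Ccnb1ip1, Lars2, Cmss1, Cdk8 and Gphn, and by Rmrp, the RNA of ribonuclease MRP, which is made without a poly(A) tail. There 55 of 62 measured members were called higher in WT, against 15.5% of all genes measured, and 47 of 60 in cKO, against 15.6%. The median log2 ratio was 3.05 and 2.36, beside -0.08 and -0.03 over all genes. In cKO 1 member was called lower (against 20% of all genes), and in WT none (against 19.4%).

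All 5 families took part in this cluster. Of 13 H4 genes, 12 were called higher in each library, and their sum was 568 CPM in WT and 395 in cKO against 118 and 117 elsewhere. In mitotic cells the H4 sum was 184 and 166. Hist1h4c, an H4 gene, had 77.9 and 67.7 in this cluster against 6.80 in both. Hist1h3e had 108 and 107 against 11.8 and 12.1, and Hist1h2ak, an H2A gene, 37.5 and 24.9 against 1.61 and 1.71. Hist1h1e reached 307 and 238. Hist1h2bc (387 and 273 against 341 and 348) and Hist1h1c (265 and 189 against 263 and 213) were not called. The number of members called higher in both libraries was 47, of which 31 had also been called higher in the mitotic cells of both.

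Other measures separated that cluster from the rest as well. Its cells had medians of 3353 and 3330 UMIs and 10.6% and 10.9% mitochondrial UMIs, against 22370 and 31106 UMIs and 5.31% and 6.24% in the remaining non-mitotic cells. Lars2 stood at 5302 and 5553 CPM against 171 and 169, Malat1, a nuclear RNA, at 35295 and 34124 against 19701 and 17335, and Rmrp at 195 and 181 against 3.92 and 3.70. The G1/S list was not raised to the same degree, with a median log2 ratio of 0.47 and 0.42. Of its 49 genes 17 and 12 were called higher, against 15.5% and 15.6% of all genes. The G2 and M phase list summed to 1634 CPM in this cluster over both libraries. It was 4793 and 3095 in the 2 mitotic clusters, and between 228 and 2137 in the remaining epithelial-like clusters. Of the variants outside the clusters, 3 were called higher and 3 lower in WT, and 2 and 5 in cKO. The part of depth, mitochondrial share and RNA quality in the histone levels of this cluster was not tested. Without it, 42 and 38 members were called higher in mitotic cells in place of 40 and 37, and the share of all genes was not counted again.

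**Figure D4:**
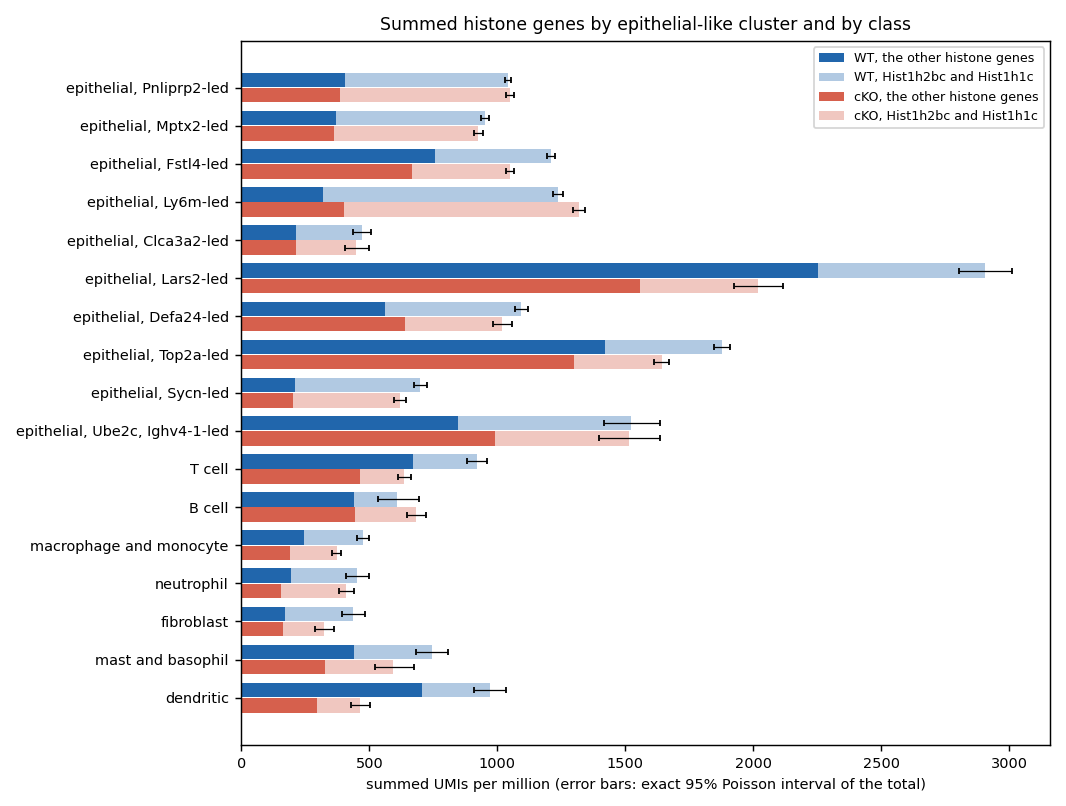
Summed CPM of the histone genes in each epithelial-like cluster, named by a leading gene, and in 7 other classes, for WT (blue) and cKO (red), with the share of Hist1h2bc and Hist1h1c in pale colour and exact 95% Poisson intervals of the total. The Lars2-led cluster and the Top2a-led mitotic cluster stand highest, and of the classes drawn fibroblasts have the lowest sum in both libraries.

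Some non-mitotic epithelial-like clusters differed in single members. Hist3h2ba had 44.8 CPM in WT and 59.8 in cKO in the cluster led by Pnliprp2, and 2.33 and 1.19 in the cluster led by Ly6m, Saa1 and Clca4b, which also had Krt20, a keratin of the mature colon surface. Its neighbour Hist3h2a had 65.02 and 71.8 in the first and 23.4 and 26.7 in the second. Hist1h2bc was the other way round, at 339 and 382 in the first and 574 and 616 in the second. These genes were chosen after their values were seen, and Hist1h1b stayed between 6.26 and 8.25 in both clusters of both libraries.

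Levels in immune cells were lower in sum but differed in makeup. T-like cells (288 WT, 397 cKO) had 920 CPM (882 to 959) and 636 (610 to 664). Macrophage and monocyte-like cells (286 and 343) had 474 and 372, and neutrophil-like cells (220 and 387) had 452 and 408. B-like cells had 608 in 51 WT cells and 683 in 321 cKO cells, and dendritic-like cells 970 in 52 and 464 in 71. Neutrophils have left the cell cycle for good, whereas activated T cells divide. Against epithelial-like cells, 9 of 51 measured members were called higher and 8 lower in WT T-like cells (23.9% and 35% of all genes), and 4 and 16 of 49 in cKO (26.3% and 38.1%). Among macrophages and monocytes 1 of 47, Hist4h4, was called higher in WT (20.1%) and 0 of 48 in cKO (20.9%), while 32 and 41 were called lower (42.1% and 45.9%). In neutrophil-like cells 1 of 47 was called higher and 18 lower in WT (15.8% and 50.8%), and 1 and 35 of 48 in cKO (16.5% and 64.6%).

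The linker histone genes led in lymphocytes. In T-like cells the 5 highest members were Hist1h1c (170 in WT and 131 in cKO), Hist1h1e (123 and 105), Hist1h1b (109 and 46.4), Hist1h2bc (78.0 and 41.7) and, in WT, Hist1h2ae (48.3), whose place Hist1h4d (28.7) took in cKO. Hist1h1e thereby stood at 192% and 173% of its epithelial-like level in T-like cells and at 214% and 216% in B-like cells. The epithelial markers stood at 12.8% and 10.3% in B-like cells. Only 0.973% of the 90-base windows of Hist1h1e are unique, and it overlaps Hist1h2be on the same strand, so that its level is uncertain. Hist1h2bc, the highest member of the epithelium, was at 23.2% and 12.5% in T-like cells.

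Neutrophil-like cells were led by Hist1h2bc (158 and 156) and Hist1h1c (102 and 97.6), followed by Hist1h4i (45.8 and 29.4), Hist1h2be (20.7 and 33.1) and Hist1h1e (13.1 and 14.7). Hist1h2be, an H2B gene, was the single member called higher there than in epithelial-like cells, at 190% and 265% of their level. Hist1h1b was near its floor at 3.27 and 5.77. The annotated transcript of Hist1h2be spans 2 exons and reaches into the gene of Hist1h1e on the same strand, so that reads of this pair could be mixed. In macrophage and monocyte-like cells Hist1h1c (129 and 107) and Hist1h2bc (101 and 74.5) led, followed by Hist1h1e (36.6 and 31.2). Hist1h1b (25.8 and 13.7) and Hist1h4i (17.0 and 14.8) came next in WT, and Hist3h2a (15.1 in cKO) and Hist1h4i in cKO.

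Between the genotypes, the histone genes of epithelial-like cells differed little in sum. The sum was 1105 CPM (1097 to 1113) in cKO and 1159 (1152 to 1166) in WT, a log2 ratio of -0.07. Of 49 measured members 27 were higher and 22 lower in cKO, and their median was 0.01 beside -0.01 over all genes. The call was met by 1 member, Hist1h2ap, which was lower in cKO, against 4.03% of all genes in either direction (1.97% higher and 2.06% lower). The count rested on the setting: it was 8 in female cells, 3 in male cells, 11 with a gate on single cells and 0 at 2-fold. The share of all genes called was not counted under these settings, so the counts cannot be set against it. With the gate on single cells Hist1h1b and Hist1h2ae turned from log2 ratios of 0.23 and 0.13 to -0.63 each. The median log2 ratio of the G1/S list was 0.28, with 47 of 49 genes higher and none called. In the mitotic cells 1 of 57 members was called higher (Hist1h2ag, against 4.12%) and 2 lower (Hist1h2br and Hist1h2ap, against 6.05%).

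Hist1h2ap, an H2A gene, stood at 13.9 CPM in cKO and 23.5 in WT epithelial-like cells, a log2 ratio of -0.76 (-0.87 to -0.65). It was 47.4 against 98.5 in mitotic cells and 9.79 against 16.8 in the others, where it was the single member of 45 called lower (against 2.11% of all genes) and none was called higher (2.01%). In T-like cells it was 7.39 against 33.9. It was 3.77 against 6.74 among macrophages and monocytes, which was not called. In B-like cells, of which WT had only 51, it was 2.44 against 10.7. The cKO value was thus the lower one in these classes too, but only the T-like difference was called. Of its 90-base windows 7.63% are unique. Which genes share its windows is not given here. The H2A genes Hist1h2ai (2.66 against 2.44), Hist1h2an (4.15 against 3.32) and Hist1h2ag (3.56 against 2.54) were not lower in cKO epithelial-like cells. Of their windows 11.2%, 16.1% and 23.2% are unique. Hist1h2ao, with 7.16% unique, stood at 0.55 against 0.53, under the limit of 2 CPM. Hist2h2aa1, with 0% unique, stood at 3.64 against 4.91 and was not called. The summed H2A family differed by -0.05 on the log2 scale.

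The genotypes differed more in T-like cells than in the epithelium. The summed members stood at a log2 ratio of -0.53 (-0.62 to -0.45), below the 1.5-fold limit of a call, and at -0.59 and -0.46 in the 2 T-like clusters taken singly. Of 33 measured members 10 were called lower in cKO, against 4.02% of all genes, and none higher, against 3.19%. The median was -0.48 beside -0.01 over all genes. The summed epithelial markers, which T cells lack, moved the same way: they stood at 976 CPM in cKO and 1596 in WT (log2 -0.71, interval -0.78 to -0.64), and their part in the result was not tested. After Hist1h2ap, the largest were Hist2h2aa1 (2.95 against 8.67), Hist1h2an (3.55 against 8.67) and Hist1h1b (46.4 against 109). The others called were Hist1h4h (6.50 against 13.2), Hist1h3c (6.50 against 12.8), Hist1h2ae (24.8 against 48.3), Hist1h2ab (5.32 against 10.3), Hist1h2bc (41.7 against 78.0) and Hist1h4i (16.5 against 26.0). Hist1h1c (131 against 170) and Hist1h1e (105 against 123) were not called.

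The cell cycle lists did not show one change in T-like cells. The G1/S list had a median of -0.04 with 2 of 46 measured genes called higher and none lower, and the G2 and M phase list -0.31 with 5 of 38 called lower. Cells assigned female by Xist and no Y-linked gene made up more of the WT T-like cells (119 beside 121 assigned male) than of the cKO cells (50 beside 293). Among female cells the summed ratio was -1.06, and among male cells it was -0.25. Hist1h1b had a ratio of -4.02 in the first and -0.47 in the second, and Hist1h2ap -2.43 and -1.62. In each, 5 members were called lower, and the share of all genes called was not counted. The part of the pooled animals in this difference was not tested.

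**Figure D5:**
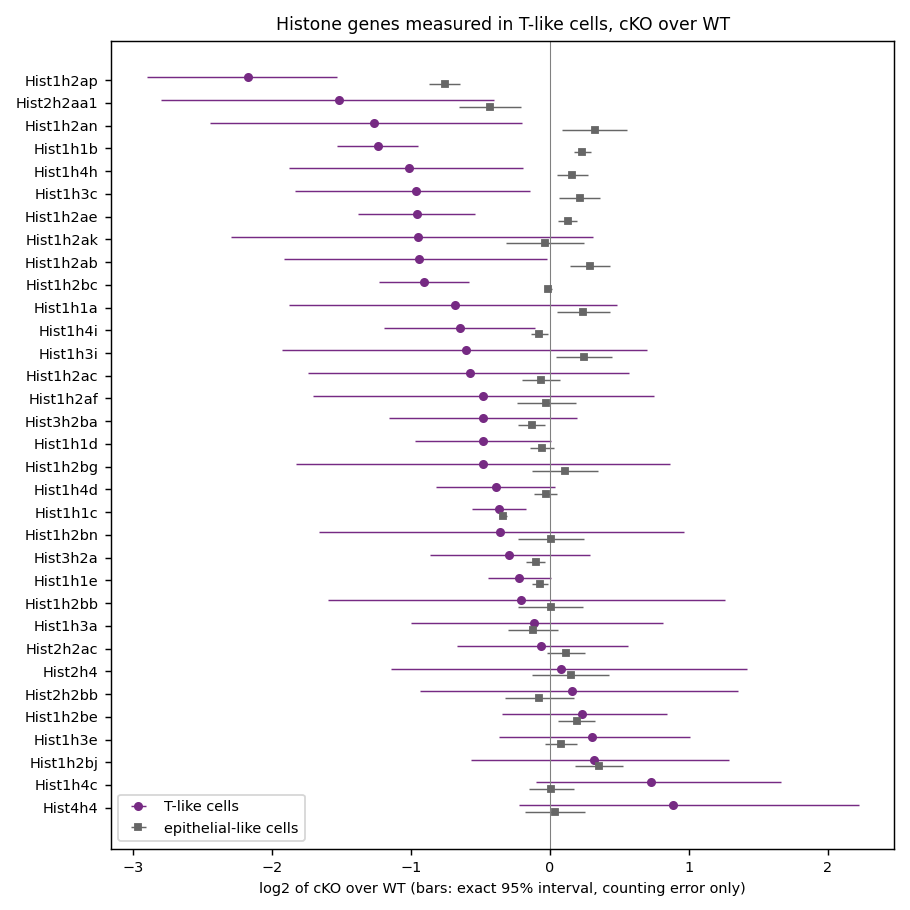
Log2 ratio of cKO over WT with exact 95% intervals for the 33 histone genes measured in T-like cells (purple circles), beside the same genes in epithelial-like cells (grey squares). Hist1h2ap lies to the left in both, and Hist1h1b lies to the left in T-like cells only.

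In macrophage and monocyte-like cells 2 of 21 measured members were called lower in cKO, which is near the 6.49% of all genes, and none higher, against 5.51%. These were Hist1h1b (13.7 against 25.8) and Hist1h2ae (9.31 against 15.8). Of the G1/S list, 17 of 48 genes were called lower, with a median of -0.47, and a link between list and members was not tested. In neutrophil-like cells 1 of 6 was called lower, Hist1h4i at 29.4 against 45.8, beside 13.6% of all genes, and none was called higher, beside 2.27%.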

How the data were processed

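Single cells of AOM-DSS tumours were measured by 10x Genomics RNA-seq in 1 pooled library per genotype. The deposited values are raw UMI counts per gene and barcode, which per the file headers came from Cell Ranger 7.2.0, and the submitters' processing notes name Seurat 3.0 and mm10. No source used here gives the gene annotation behind the counts. Barcodes with under 500 genes or over 25% mitochondrial UMIs were left out, and doublets were taken as the highest scrublet scores at 0.8% per 1000 barcodes. The rest were clustered (scanpy 1.11.5, leidenalg 0.10.2, 2000 variable genes without histone genes, Mtch2, sex-linked and immune receptor genes, 30 components, 20 neighbours, resolution 1). A cluster was named from marker lists of cell classes. The rule that turns scores into names was set after the clusters were seen.

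Counts were summed per class and library and scaled to CPM. Levels have exact Poisson intervals and ratios exact conditional binomial ones, at 95%. Ratios add 0.5 UMIs to each sum. They were tried on simulated counts that held counting error only, which cannot show how they behave with differences between mice. Totals ran from 917574 UMIs (WT neutrophil-like) to 94492985 (WT epithelial-like), which sets the precision. The named genes were the 12 highest members in WT epithelial-like cells, the 5 highest and 5 lowest mitotic ratios, every member called in epithelial-like cells between genotypes and the 5 highest in each other class of 100 cells or more per library. Of the other lists they were the genes called, otherwise the 4 highest. Members and lists were chosen with earlier results of these data known. Alternatives changed the scaling, filters, clustering, gate, sexes and members in the sum. Transcripts were read from GENCODE M21 and promoters from RefSeq, both on GRCm38. No replicate number pairs the libraries.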

Additional observations from a re-analysis of the deposited data

How the results depend on the processing

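No paired analysis was possible because each genotype has 1 library. Ratios here are log2. Over the alternatives tried, 180 values that answer a comparison stayed within 1.5 times or within their interval, with no call gained or lost. Another 39 moved by over 1.5 times or past their interval, 6 gained and 5 lost a call, and 1 changed sign where a call was made. For single members, 563 values stayed in that range, 34 moved, 12 gained and 37 lost a call, and 21 changed sign where a call was made. A change of sign between values without a call was not counted. The cause of each change was not tested. With no replicate, differences between mice cannot be told from differences between genotypes, and members with few UMIs limit the precision.

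The epithelial-like sum in WT and cKO was 1401 and 1372 CPM when mitochondrial, ribosomal, haemoglobin and immunoglobulin genes were left out of the scaling, 1208 and 1052 with a gate on single cells, 1072 and 897 in female cells, 1227 and 1160 in male cells, 823 and 772 without Hist1h2bc, 565 and 568 without that gene and Hist1h1c, and 1139 and 1094 without the Lars2-led cluster. In WT it was 1194 as the mean of single cells and 1170 at 15% mitochondrial UMIs or less. The mitotic ratio of the sum was 0.42 in WT and 0.22 in cKO at the coarser clustering, 0.54 in cKO as the mean of single cells, 1.49 and 1.42 without the 2 highest members, and -0.50 in cKO female cells (16 mitotic cells). At the coarser clustering Hist3h2ba turned to -0.85 and -1.35. The members called higher in mitotic cells numbered 22 and 19 among those at 10 CPM, 16 and 8 with the gate on single cells, and 1 in cKO female cells. Fewer members are measured at 10 CPM than at 2 CPM. The share of all genes called was not counted under these settings, so a lower count is not by itself a weaker result.

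In cKO female cells the mitotic ratios of Hist1h1e (-0.16), Hist1h2ae (-0.089), Hist1h2af (-1.98), Hist1h2ap (-0.67) and Hist1h3b (-0.29) changed sign. With the gate on single cells those of Hist1h1c (0.81), Hist1h2bc (0.97), Hist3h2a (1.99), Hist2h3c1 (0.27, and 0.76 in WT), Hist1h1d (-0.15), Hist1h3e (-1.02) and Hist1h4d (-1.01) did so. The gate kept 90 WT and 55 cKO mitotic cells. Between genotypes it gave Hist1h1b -0.63 and Hist1h2ae -0.63 in epithelial-like cells and Hist2h2aa1 1.83 in T-like cells. Hist2h3c2 stood at -0.94 in female epithelial-like cells, and Hist1h4h at 0.050 and Hist1h3c at 0.076 in male T-like cells.

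Between genotypes the T-like sum stood at -0.72 with doublets kept, -0.59 in the Il17a-led cluster alone and -1.06 in female cells, and the neutrophil-like sum at -0.85 in female cells (30 cells). Members called lower in T-like cells numbered 5 at 2-fold, in female cells and in male cells, and 3 with the gate. Members called in epithelial-like cells numbered 0 at 2-fold, 8 in female cells, 3 in male cells and 11 with the gate. The share of all genes called was not counted for any of these settings. The T-like over epithelial-like ratio was -0.77 as the mean of single cells and -0.83 with the gate in WT, and in cKO -0.38 without Hist1h2bc and -0.29 without Hist1h1c as well. The thinned shares of cells were 86.8% and 89.9% (mitotic) and 74.8% and 75.2% (other) at 5000 UMIs, and 91.0%, 89.3%, 84.6% and 83.5% without thinning.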
